A study of Homo sapiens with 6 samples.

Results

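A set of 9 genes of the interleukin-1 (IL-1) system and its chromosomal neighbourhood were followed after TRAF2 knockdown in U251 cells: IL1A, IL1B, IL36B, IL1RN, IL36RN, IL1R1, IL1RAP, PAX8 and PSD4. They were 9 of the 23002 genes of the table and were found by gene symbol. They were chosen by earlier results of these same data, from sh-TRAF2 against sh-NC, so their differences are given here as descriptions, and counts of members past a threshold are no test of them. The question put to them was whether neighbouring genes moved together. Of the 9 genes, 7 had a mean level high enough to enter the fit across genes, and IL1RN and PSD4 did not.

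RNA was sequenced from U251, an established human glioblastoma cell line. The control cells carried a lentivirus with a non-targeting short hairpin RNA (sh-NC, 3 samples), and the knockdown cells carried one with a short hairpin RNA against TRAF2 (sh-TRAF2, 3 samples). Both were stable lines of 1 cell line under puromycin selection, and no TNF-α was named for these samples. Whether a group held more than 1 virus-treated population is not given. The samples of a group were described as biological replicates, but the sources do not say how they were separated. The p-values therefore measure only the spread among these samples of 1 cell line. Levels are FPKM (fragments scaled to transcript length and to the depth of the library), and the change is the log2 fold change of FPKM + 0.1, sh-TRAF2 minus sh-NC, with its standard error (SE) from limma.

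IL-1α and IL-1β, encoded by IL1A and IL1B, are inflammatory cytokines that bind IL1R1, which then recruits IL1RAP and signals through MYD88 and IRAK kinases to NF-κB. IL1RN encodes a secreted antagonist that occupies IL1R1 without signalling, and IL36B and IL36RN encode an agonist and the antagonist of the related IL-36 receptor, which also uses IL1RAP. These ligands are best known from myeloid cells and epithelia, and IL1A and IL1B are also made by some glioma cells. PAX8 is a transcription factor of thyroid, kidney and Müllerian development, and PSD4 is an exchange factor for the small GTPase ARF6.

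The genes IL1A, IL1B, IL36B, IL36RN, IL1RN, PSD4 and PAX8 lie in this order on chromosome 2, over 505 kb from the start of IL1A to the end of PAX8. In the GENCODE 29 annotation of GRCh38, IL1A lies at chr2:112773915-112784590 and IL1B at chr2:112829751-112836903, both on the minus strand and 45.2 kb apart. IL36B (chr2:113022091-113052867, minus strand) and IL36RN (chr2:113058638-113065382, plus strand) are transcribed away from each other, with 5.77 kb between them. IL1RN (chr2:113107214-113134016) and PSD4 (chr2:113157325-113209396) are on the plus strand, and PAX8 (chr2:113215997-113278950, minus strand) ends 6.60 kb from the end of PSD4. IL1R1 (chr2:102064544-102179874, plus strand) lies 10.6 Mb away on the same chromosome, and IL1RAP is on chromosome 3 (chr3:190514051-190659750, plus strand). The build behind the deposited values is not given in the sources used here.

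The 250 bases before the RefSeq transcription start (GRCh38.p14) are shown for the adjacent pair that was higher after knockdown, IL1A and IL1B, and for IL36RN and PAX8, which were lower, because the question was whether neighbours moved together. Each is written 5′ to 3′ on the strand of the gene, and capitals mark matches to 4 motifs searched on both strands, those of AP-1, NF-κB, a TATA box and a CRE half-site.
IL1A (chr2:112784494-112784743, minus strand): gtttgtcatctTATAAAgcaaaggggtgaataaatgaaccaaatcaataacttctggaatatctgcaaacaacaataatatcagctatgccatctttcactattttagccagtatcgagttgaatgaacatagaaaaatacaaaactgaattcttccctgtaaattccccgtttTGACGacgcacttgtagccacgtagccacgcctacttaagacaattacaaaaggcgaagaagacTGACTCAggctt
IL1B (chr2:112836780-112837029, minus strand): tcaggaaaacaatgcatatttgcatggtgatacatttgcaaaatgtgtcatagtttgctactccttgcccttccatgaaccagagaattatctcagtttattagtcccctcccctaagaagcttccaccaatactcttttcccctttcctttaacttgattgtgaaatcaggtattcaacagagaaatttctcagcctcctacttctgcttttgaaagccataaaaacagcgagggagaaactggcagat
IL36RN (chr2:113058388-113058637, plus strand): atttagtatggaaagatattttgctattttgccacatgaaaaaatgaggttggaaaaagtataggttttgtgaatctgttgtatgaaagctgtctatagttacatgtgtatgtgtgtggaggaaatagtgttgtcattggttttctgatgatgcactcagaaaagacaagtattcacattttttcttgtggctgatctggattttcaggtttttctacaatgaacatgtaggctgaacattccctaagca
PAX8 (chr2:113278922-113279171, minus strand): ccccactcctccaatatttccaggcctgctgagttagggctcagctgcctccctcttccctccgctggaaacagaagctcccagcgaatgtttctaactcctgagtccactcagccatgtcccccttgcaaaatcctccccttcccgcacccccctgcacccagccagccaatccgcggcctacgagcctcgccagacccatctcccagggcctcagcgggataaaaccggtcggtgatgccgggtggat

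The IL1A sequence held TGACTCA 12 to 6 bases before the start, TGACG and a TATAAA far upstream, and these 3 matches did not overlap. The other 3 sequences shown held none of the 4 motifs. RefSeq lists several starts for some genes, 15 over the 8 members it holds. At its other start IL1A had the AP-1 motif 2 times, the CRE half-site 1 time and no TATA box. The windows of both IL1A starts overlap, so the TGACTCA and TGACG above are among these matches. Matches were also found before starts of lower members, with AP-1 and TATA box matches for IL1RN, TATA box matches for IL1R1 and a CRE half-site for PSD4. Among all 35116 RefSeq promoters, the same 250 bases held the AP-1 motif (letters TGANTCA) in 6.57% of cases. The TATA box (letters TATAAA) was in 10.7%, the NF-κB motif (letters GGANTTTCC) in 1.45% and the CRE half-site (letters TGACG) in 21.2%. The GC content was 37.6% for IL1A, 40.0% for IL1B, 34.4% for IL36RN and 61.6% for PAX8, against a median of 58.0% over all promoters. A match is a run of letters in this window and not evidence of binding.

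The reads recovered from the FPKM values came to between 33999558 and 36823562 per sample. TRAF2 itself was at 15.1, 18.4 and 15.3 FPKM in sh-NC and at 3.26, 3.22 and 3.33 FPKM in sh-TRAF2, lower in every knockdown sample. Of 8 glioma line markers, 7 were above the low-value filter (summed level 1490 to 1560 FPKM in sh-NC and 1820 to 1870 FPKM in sh-TRAF2), and S100B was below it. VIM made up most of this sum, with a mean of 1240 FPKM in sh-NC and 1580 FPKM in sh-TRAF2 (log2 fold change 0.35, adjusted p = 6.87e-05 from limma). NES rose (log2 fold change 1.12, adjusted p = 1.91e-05 from limma) and EGFR fell (-1.14, adjusted p = 2.23e-06), while the call of GFAP (1.11, adjusted p = 0.0382) was lost, for example, without sh-TRAF2 replicate 2 (adjusted p = 0.132). None of the 5 macrophage and microglia markers in the table passed the filter (summed level 0.574 to 0.883 FPKM in sh-NC and 0.385 to 0.791 FPKM in sh-TRAF2), and none of the 4 keratinocyte and epithelial markers did (at most 0.048 FPKM). Of 5 endothelial markers only KDR passed it, and their sum was 3.36 to 3.42 FPKM in sh-NC and 3.67 to 4.37 FPKM in sh-TRAF2.

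IL1A, which encodes IL-1α, was the most abundant of the 9 genes in both groups. Its level was 67.5, 59.9 and 59.4 FPKM in the sh-NC samples and 111, 104 and 102 FPKM in the sh-TRAF2 samples. Every sh-TRAF2 sample was above every sh-NC sample. The mean was 62.3 ± 4.53 FPKM in sh-NC and 105 ± 4.63 FPKM in sh-TRAF2 (SD, n = 3), 1.69-fold higher, with a log2 fold change of 0.76 (SE 0.057). In these bulk samples a change in RNA per cell and a change in the share of cells that make it cannot be told apart.

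IL1B, which encodes IL-1β and lies next to IL1A, differed more. It was at 9.06, 7.54 and 6.80 FPKM in sh-NC and at 26.8, 25.5 and 24.7 FPKM in sh-TRAF2. The groups were far apart, and the lowest knockdown sample was well above the highest control. The mean was 7.80 ± 1.15 FPKM in sh-NC and 25.6 ± 1.05 FPKM in sh-TRAF2 (SD, n = 3), 3.29-fold higher, with a log2 fold change of 1.71 (SE 0.095). IL1B thus moved from about the level of IL1RAP to a level between those of IL1A and all the other members.

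IL36B, an agonist of the IL-36 receptor, went the other way. It was at 4.23, 4.53 and 4.51 FPKM in sh-NC and at 1.87, 0.971 and 1.47 FPKM in sh-TRAF2. The controls were tightly grouped and the knockdown samples were lower and more scattered, with sh-TRAF2 replicate 2 lowest. The mean was 4.42 ± 0.168 FPKM in sh-NC and 1.44 ± 0.452 FPKM in sh-TRAF2 (SD, n = 3), 3.08-fold lower, with a log2 fold change of -1.60 (SE 0.19). The reads behind it numbered 312, 336 and 347 in sh-NC and 135, 69 and 107 in sh-TRAF2.

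IL36RN, the antagonist of the IL-36 receptor and the neighbour of IL36B, was lower too. It was at 8.73, 8.0 and 8.40 FPKM in sh-NC and at 4.71, 3.06 and 4.38 FPKM in sh-TRAF2. The groups did not overlap, and sh-TRAF2 replicate 2 was again the lowest sample. The mean was 8.38 ± 0.367 FPKM in sh-NC and 4.05 ± 0.874 FPKM in sh-TRAF2 (SD, n = 3), 2.07-fold lower, with a log2 fold change of -1.05 (SE 0.14).

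IL1RN, the antagonist of IL1R1, was barely detected. Its level was 0.0678, 0.203 and 0.271 FPKM in sh-NC and 0.0231, 0.0117 and 0.0459 FPKM in sh-TRAF2, all under the filter. These values rest on 6, 18 and 25 reads in sh-NC and on 2, 1 and 4 reads in sh-TRAF2. All the knockdown samples were below all the controls, but sh-NC replicate 1 lay nearer to the knockdown samples than to the other controls. With no filter the log2 fold change was -1.08 (SE 0.30), a value that the pseudocount sets in large part at this level.

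IL1R1, the signalling receptor of IL-1α and IL-1β, was moderately lower. It was at 3.73, 3.65 and 3.47 FPKM in sh-NC and at 2.38, 2.56 and 2.20 FPKM in sh-TRAF2. The groups did not overlap and both were tight. The mean was 3.61 ± 0.133 FPKM in sh-NC and 2.38 ± 0.179 FPKM in sh-TRAF2 (SD, n = 3), 1.52-fold lower, with a log2 fold change of -0.58 (SE 0.080).

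IL1RAP, the accessory chain shared by the IL-1, IL-33 and IL-36 receptors, differed more than IL1R1. It was at 7.62, 6.98 and 8.72 FPKM in sh-NC and at 3.17, 3.39 and 3.57 FPKM in sh-TRAF2. The groups did not overlap, and the controls were the more scattered. The mean was 7.77 ± 0.879 FPKM in sh-NC and 3.38 ± 0.202 FPKM in sh-TRAF2 (SD, n = 3), 2.30-fold lower, with a log2 fold change of -1.17 (SE 0.089).

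PAX8 was at 9.76, 10.3 and 8.86 FPKM in sh-NC and at 3.50, 3.03 and 3.28 FPKM in sh-TRAF2. No knockdown sample came near a control. The mean was 9.65 ± 0.739 FPKM in sh-NC and 3.27 ± 0.237 FPKM in sh-TRAF2 (SD, n = 3), 2.95-fold lower, with a log2 fold change of -1.53 (SE 0.079). PAX8-AS1, a long non-coding RNA on the opposite strand, overlaps it and shares 685 exonic bases with it in GENCODE 29, 9.26% of the PAX8 exonic bases. It was at 5.23, 5.90 and 4.36 FPKM in sh-NC and at 2.97, 3.05 and 2.78 FPKM in sh-TRAF2 (log2 fold change -0.79, adjusted p = 0.000644 from limma). Whether strand was used in counting is not given in the sources used here, so reads of the pair over the shared bases cannot be told apart.

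PSD4, which ends next to the end of PAX8, was at 0.227, 0.212 and 0.190 FPKM in sh-NC and at 0.0851, 0.137 and 0.122 FPKM in sh-TRAF2. All knockdown samples were below all controls, on 93, 87 and 81 reads against 34, 54 and 49. The log2 fold change was -0.54 (SE 0.16) with no filter and -0.89 with limma-voom on the recovered reads, since the pseudocount is large beside such low levels. PSD4 and IL1R1 each also overlap an annotated antisense RNA, AC016683.1 and IL1R1-AS1.

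Within sh-NC the mean levels ran from IL1A through PAX8, IL36RN, IL1B, IL1RAP, IL36B, IL1R1 and PSD4 to IL1RN. The samples of IL36RN, IL1B and IL1RAP overlapped one another, those of PAX8 and IL1B overlapped, and so did those of PSD4 and IL1RN. Within sh-TRAF2 the order was IL1A, IL1B, IL36RN, IL1RAP, PAX8, IL1R1, IL36B, PSD4 and IL1RN, and the samples of IL36RN, IL1RAP and PAX8 overlapped one another.

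At an absolute log2 fold change above 1 and an adjusted p under 0.05, 1 member was called higher (IL1B) and 4 were called lower (IL36B, IL36RN, PAX8 and IL1RAP). Of the 11870 genes tested, 0.986% were called higher and 0.733% lower. By the adjusted p alone 2 members were higher and 5 lower, against 23.7% and 20.9% of all tested genes. Groups that did not overlap were found for 2 members above and 7 below (5 of these 7 in the fit), against 29.0% and 26.5% of tested genes. The members were picked on this comparison, so nothing is read from these counts. With a pseudocount of 1, 2 members were called lower, because IL1RAP (-1.0) and IL36RN (-0.91) no longer passed the fold-change threshold. Without sh-TRAF2 replicate 2, 3 were called lower, because IL36RN (-0.87) did not pass it.

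The members of the chromosome 2 stretch did not all move the same way. Of its 7 members, the 2 at one end (IL1A and IL1B) were higher, and IL36B, IL36RN and PAX8 were lower. IL1RN and PSD4 also had lower values, but both were under the filter and not tested, and IL1RN rests on 1 to 25 reads per sample. The members were chosen on this comparison, so this grouping is a description. Between IL1B and IL36B lie IL37, IL36G and IL36A, and IL1F10 lies between IL36RN and IL1RN. These 4 IL-1 family genes had at most 0.0963 FPKM on average, on 0 to 9 reads per sample, so no direction can be read for them.

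**Figure D1:**
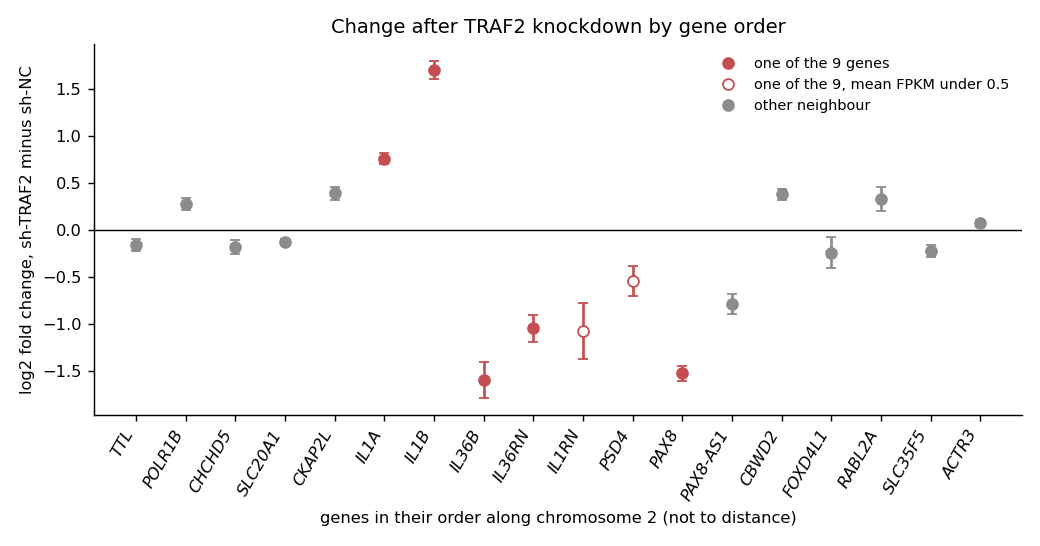
Log2 fold change of FPKM + 0.1 (sh-TRAF2 minus sh-NC, bars SE) for the genes from TTL to ACTR3, in their order along chromosome 2 and not at scale. Members are red, the 2 members under the filter are open circles, and other tested neighbours are grey; IL1A and IL1B lie above 0, the members from IL36B to PAX8 lie below it, and the grey neighbours outside lie between -0.24 and 0.39.

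Around and within the stretch 27 other genes were listed and 11 were tested, of which 3 rose, 3 fell and 5 did not pass the adjusted p, with a median log2 fold change of -0.13, against 0.0189 over all tested genes, of which 23.7% rose and 20.9% fell. None passed the fold-change threshold; the members were chosen on this comparison and these neighbours were not, so the sizes of their differences are not compared. On the IL1A side, CKAP2L, a mitotic spindle protein and the gene next to IL1A, rose by 0.39 (adjusted p = 0.00238 from limma). POLR1B, a subunit of RNA polymerase I, rose by 0.28 (adjusted p = 0.00833), and SLC20A1, a phosphate transporter, fell by 0.13 on the log2 scale (adjusted p = 0.0139).

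The genes TTL (-0.16, adjusted p = 0.0667) and CHCHD5 (-0.18, adjusted p = 0.0964) did not pass. On the PAX8 side, beyond PAX8-AS1, CBWD2 had a log2 fold change of 0.38 (adjusted p = 0.00122 from limma) and SLC35F5 one of -0.22 (adjusted p = 0.0248). FOXD4L1 (-0.24, adjusted p = 0.281), RABL2A (0.33, adjusted p = 0.0770) and ACTR3, a subunit of the actin-nucleating Arp2/3 complex (0.07, adjusted p = 0.181), did not pass. CBWD2, FOXD4L1 and RABL2A have near-identical copies elsewhere, so their reads are uncertain. The calls of SLC20A1 (adjusted p = 0.0518) and SLC35F5 (adjusted p = 0.0787) were lost without sh-TRAF2 replicate 2, and that of SLC35F5 also without sh-NC replicate 3 or sh-TRAF2 replicate 3. PAX8-AS1 was the neighbour with the largest difference, and it is the one whose exons overlap a member.

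Around IL1R1, 21 other genes were listed and 10 tested, of which 3 rose, 1 fell and 6 did not pass, with a median log2 fold change of 0.04. IL1RL1, the IL-33 receptor and a neighbour in the receptor cluster, went opposite to IL1R1. Its mean was 2.77 ± 0.072 FPKM in sh-NC and 3.98 ± 0.260 FPKM in sh-TRAF2 (SD, n = 3), a log2 fold change of 0.50 (adjusted p = 0.000852 from limma). IL18R1, the IL-18 receptor chain next to it, had a log2 fold change of -0.08 (adjusted p = 0.664). Of the other genes there, CNOT11 (0.55) and MAP4K4 (0.18) rose and MFSD9 (-0.35) fell, and TBC1D8 (-0.22), RNF149 (-0.19), RFX8 (0.14), SLC9A2 (-0.02) and TMEM182 (0.11) did not pass. The call of MAP4K4 was lost with quantile normalization (0.12, adjusted p = 0.0651).

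Around IL1RAP, 29 other genes were listed and 10 tested, of which 2 rose, 3 fell and 5 did not pass, with a median log2 fold change of -0.04. LPP, a focal adhesion protein, fell by 0.73 on the log2 scale (adjusted p = 4.95e-05 from limma), and LPP-AS2 by 0.47 (adjusted p = 0.0147). FGF12 also fell (-0.20, adjusted p = 0.0239), while CLDN1, a tight junction protein (0.20, adjusted p = 0.00282), and MB21D2 (0.46, adjusted p = 0.00106) rose. BCL6 (-0.18), P3H2 (0.22), CCDC50 (adjusted p = 0.970), PLAAT1 (-0.07) and MGC2889 (0.09) did not pass. The call of FGF12 was lost without any 1 of 5 samples (adjusted p = 0.0549 to 0.0790), and that of LPP-AS2 without sh-NC replicate 1 (adjusted p = 0.0550) or sh-TRAF2 replicate 3 (adjusted p = 0.0501). Over all 3 places, 31 other neighbours were tested, with 8 higher, 7 lower and none past the fold-change threshold, beside 23.7% higher and 20.9% lower among all tested genes.

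Neighbouring members changed by unequal amounts, which ratios within each sample show without regard to scaling. The ratio of IL1A to IL1B was 7.45, 7.95 and 8.73 in sh-NC and 4.13, 4.07 and 4.13 in sh-TRAF2. IL1A remained the more abundant in every sample, and the ratio was lower in every knockdown sample. The ratio of IL36RN to IL36B was 2.06, 1.76 and 1.86 in sh-NC and 2.52, 3.15 and 2.98 in sh-TRAF2, so IL36B was reduced by more than its antagonist. The ratio of PAX8 to PAX8-AS1 was 1.87, 1.75 and 2.04 in sh-NC and 1.18, 0.993 and 1.18 in sh-TRAF2, so the reduction was larger for PAX8.

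The balance of ligand and receptor transcripts also differed. The ratio of IL1B to IL1R1 was 2.43, 2.07 and 1.96 in sh-NC and 11.3, 9.95 and 11.2 in sh-TRAF2. The ratio of IL1A to IL1R1 was 18.1, 16.4 and 17.1 in sh-NC and 46.6, 40.5 and 46.3 in sh-TRAF2. Both were higher in every knockdown sample, as the ligands were higher and the receptor lower. The ratio of IL1RAP to IL1R1 was 2.04, 1.91 and 2.52 in sh-NC and 1.33, 1.33 and 1.62 in sh-TRAF2, so the accessory chain was reduced by more than the receptor it joins.

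**Figure D2:**
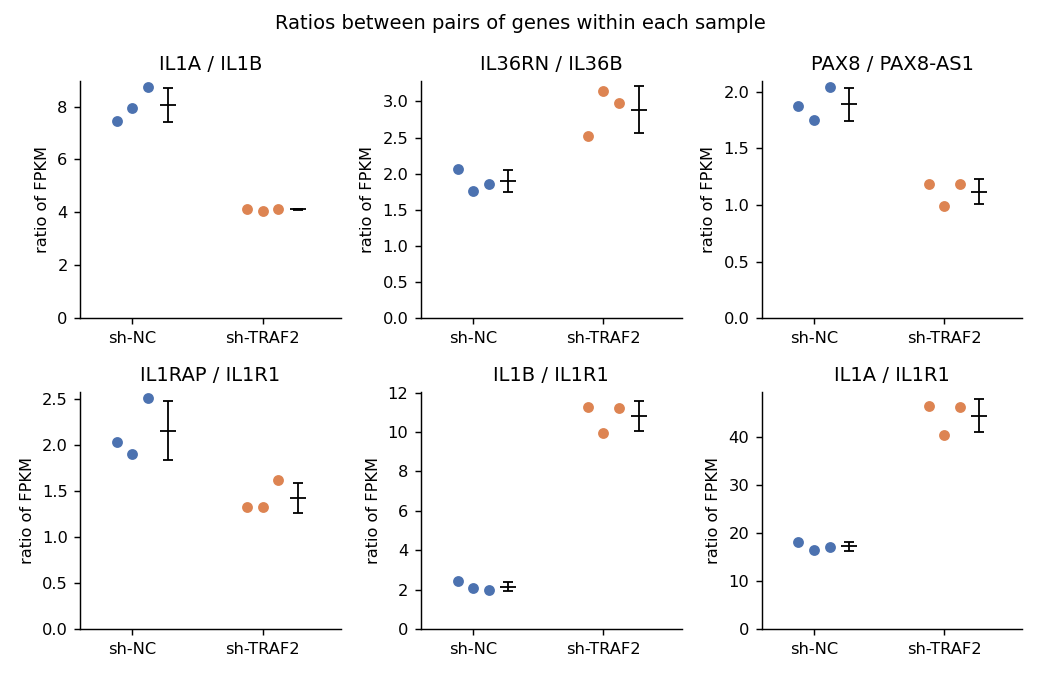
Ratio of FPKM between 2 genes of the same sample (axis from 0), with sh-NC in blue, sh-TRAF2 in orange, and the mean ± SD as a bar. In all 6 ratios the 3 sh-TRAF2 samples lie apart from the 3 sh-NC samples, with IL1B / IL1R1 between 1.96 and 2.43 in sh-NC and between 9.95 and 11.3 in sh-TRAF2.

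Other genes of the IL-1 pathway were read from lists that also had earlier results of these data in view. Of 6 other IL-1 family ligands only IL18 was above the filter, with 52.3 ± 3.28 FPKM in sh-NC and 49.5 ± 1.23 FPKM in sh-TRAF2 (SD, n = 3; log2 fold change -0.08, adjusted p = 0.248 from limma). Of 7 other receptors and binding proteins that the table lists, 3 were tested, and 1 rose, IL1RL1. IL18BP, which neutralises IL-18, had a log2 fold change of 0.15 (adjusted p = 0.466). No values were found for IL1RL2, the ligand-binding chain of the IL-36 receptor, in these lists or around IL1R1.

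Of 7 tested genes of IL-1 processing and release, 3 fell, none rose and 4 did not pass, with a median log2 fold change of -0.12, beside 20.9% that fell and 23.7% that rose among all tested genes. GSDME, a pore-forming gasdermin, fell by 0.56 on the log2 scale (adjusted p = 0.000128 from limma), CASP8, an apoptotic caspase, by 0.37 (adjusted p = 0.00179) and CAPN1, a calpain, by 0.30 (adjusted p = 0.0012). CASP1 and NLRP3, the core of the inflammasome that cleaves pro-IL-1β, were not above the filter.

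Of 17 tested genes of signalling below the IL-1 receptor, 1 rose, 6 fell and 10 did not pass, with a median log2 fold change of -0.03, beside 23.7% that rose and 20.9% that fell among all tested genes. IRAK1, a kinase that acts below MYD88, rose from 186 ± 4.63 to 248 ± 6.08 FPKM (SD, n = 3; log2 fold change 0.42, adjusted p = 4.58e-05 from limma). TAB3, an adaptor of the TAK1 kinase, fell by 0.73 on the log2 scale (adjusted p = 8.27e-05), and CHUK, an IκB kinase, by 0.42 (adjusted p = 0.000401). The other 4 that fell were MAP3K7, IRAK4, TAB2 and TRAF6. MYD88 itself was at 18.3 ± 2.07 and 18.9 ± 1.94 FPKM (SD, n = 3) and overlapped between the groups.

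Genes that IL-1 is known to induce were mixed, in a list made with earlier results of these data in view. Of 22 tested, 11 rose, 4 fell and 7 did not pass, with a median log2 fold change of 0.26, against 0.0189 over all tested genes and with 23.7% of those rising and 20.9% falling. CCL20, a chemokine for lymphocytes and dendritic cells, was called higher (21.1 ± 0.939 to 44.1 ± 0.10 FPKM, SD, n = 3; log2 fold change 1.06, adjusted p = 2.23e-06 from limma). CCL2, a monocyte chemokine, was called lower (131 ± 5.13 to 56.6 ± 6.75 FPKM, SD, n = 3; log2 fold change -1.22, adjusted p = 1.86e-05). The list thus held called genes in both directions. These genes also answer to other NF-κB inducers, and the part of IL-1 in their levels was not tested.

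**Figure D3:**
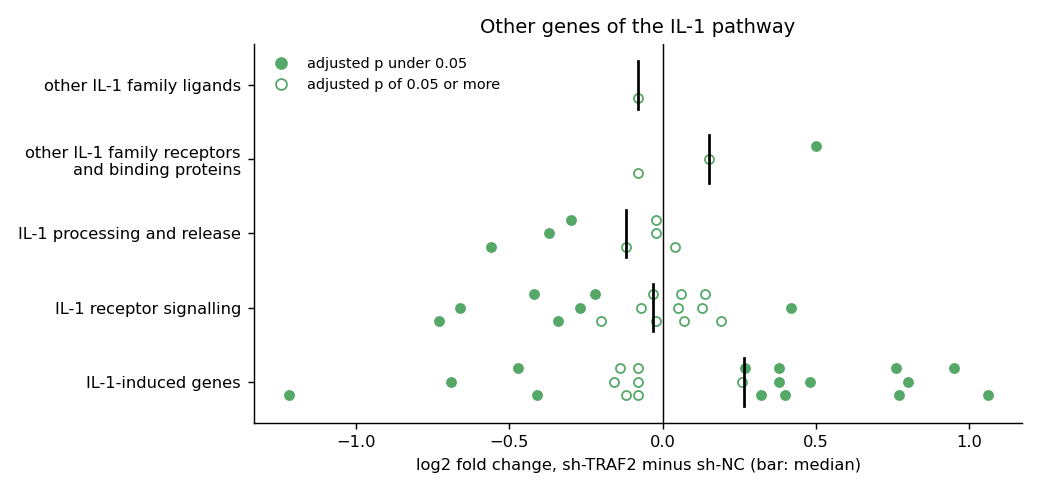
Log2 fold change of FPKM + 0.1 (sh-TRAF2 minus sh-NC) of each tested gene in 5 lists of the IL-1 pathway that leave out the 9 members; filled points have an adjusted p under 0.05, open points do not, and the black bar is the median. The IL-1-induced genes have a median of 0.26 and run from -1.22 (CCL2) to 1.06 (CCL20).

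PAX8 was set beside other genes of its family and lineages. Of 4 other PAX genes that the table lists, 2 were tested: PAX6, a transcription factor of neural progenitors, fell by 0.29 on the log2 scale (adjusted p = 0.0115 from limma), and PAX9 had -0.07 (adjusted p = 0.772). Of 10 thyroid, kidney and Müllerian genes in the table only LHX1, a kidney and neural regulator, was above the filter, and it rose by 0.70 (adjusted p = 0.00158).

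PSD4 was set beside ARF6 and its other exchange factors, of which 5 were tested. CYTH1 (0.31, adjusted p = 0.0126 from limma) and CYTH2 (0.23, adjusted p = 0.0350) rose, CYTH3 (-0.14, adjusted p = 0.0473) fell, and PSD3 (-0.05, adjusted p = 0.815) and ARF6 itself (0.02, adjusted p = 0.767) did not pass. The call of CYTH3 was lost without any 1 of 5 samples (adjusted p = 0.0816 to 0.151) and that of CYTH2 without any 1 of 4 (adjusted p = 0.0581 to 0.113). For CYTH3 the call held without sh-NC replicate 2, and for CYTH2 without sh-NC replicate 1 or sh-TRAF2 replicate 1.

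Which of the TRAF2 hairpins was sequenced is not given in the sources used here. The TRAF2 sequences of both are shown because a short run of the first, bases 10 to 16, recurs in members; that run is in capitals in each sequence that holds it.
sh-TRAF2#1 target: cccttgcagATTCCACgccat
sh-TRAF2#2 target: ctggaccaagacaagattgaa
IL1A, 3′ untranslated region, base 929 of 1152: cttgtttcaATTCCACctgca
IL1RN, 3′ untranslated region, base 332 of 1145: tcctccctcATTCCACcttcc
PAX8, 3′ untranslated region, base 702 of 2613: ccctcagaaATTCCACcaggc
PAX8, 3′ untranslated region, base 837 of 2613: aaaacagacATTCCACagggc
IL1R1, 3′ untranslated region, base 1415 of 3115: catcctccaATTCCACagtct

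In the GENCODE 29 transcripts each full target matched TRAF2 only, and the longest run shared with a member was 9 bases for either hairpin. The run ATTCCAC was in the longest 3′ untranslated region of 4 of the 9 members, against 11.5% of 10822 tested genes with such a region. The 4 carriers were IL1A, which was higher, and IL1RN, PAX8 and IL1R1, which were lower. IL36B, IL36RN, IL1RAP and IL1B, with the other large differences, had no match. The run was picked from earlier results of these data and is shown because members hold it, so nothing is read from the share of carriers. The run lies in the middle of the 21-base target, and carriers of other runs of either hairpin were not counted. A part of the hairpin in the members' levels was not tested.

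The genes whose pattern over the 6 samples was most like that of IL1B on the log2 scale were SPDL1 (Pearson r = 0.9994), CCNB1IP1 (0.9992) and TGFBR2 (0.9991). For PAX8 they were ZFP36L1 (0.9996), KPNA6 (0.9995) and TRAM2 (0.9993). These correlations over 6 samples mostly restate the gap between 2 groups: 1098 tested genes reached 0.95 with IL1B and 961 with PAX8.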

How the data were processed

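The authors deposited 1 table of FPKM values for 23002 genes in 6 samples; per the labels RNA was extracted with TRIzol and libraries were made with a VAHTS Universal V6 kit, and the submitters' processing notes name HISAT2, HTSeq, DESeq2 and R 3.2.0. The genome build, annotation and strand setting are not given in the sources used here. From these values log2(FPKM + 0.1) was computed, genes with a mean FPKM under 0.5 were dropped, and the groups were compared over the remaining 11870 genes with limma 3.58.1 in R 4.3.3 (eBayes with a trend, two-sided, Benjamini-Hochberg adjustment). Reads were recovered from the step between the values of each gene, as the smallest whole numbers to within 0.002 reads; where only 1 sample had reads (2643 genes) the lowest count was taken. In simulated data all 6 counts came out exactly for 98.1% of the genes that were recovered with reads in 2 or more samples. The members, the lists and the rule for named genes were chosen with earlier results of these data known. Named are the 9 members, TRAF2 and tested neighbours (matched to RefSeq order by NCBI Gene number). So are the called genes of each list, or otherwise its 3 smallest adjusted p, and the 3 genes most like IL1B and PAX8. MYD88, IL18R1 beside IL1RL1, CASP1, NLRP3, MAP3K7, IRAK4, TAB2, TRAF6, PSD3, ARF6 and VIM were named after their values were seen. IL1RL2 was named without values. Alternatives were other pseudocounts, filters, scalings, a replicate block, no trend, each sample left out and limma-voom. Other steps ran in Python 3.11.15 with pandas 2.3.3, and figures were drawn with matplotlib 3.10.9.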

Additional observations from a re-analysis of the deposited data

How the results depend on the processing

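The directions of the 7 tested members did not change under any of the 15 alternatives. The log2 fold change ran from 0.71 to 0.82 for IL1A, 1.61 to 1.83 for IL1B, -1.80 to -1.17 for IL36B, -1.17 to -0.87 for IL36RN, -0.64 to -0.45 for IL1R1, -1.25 to -1.0 for IL1RAP and -1.59 to -1.32 for PAX8. Over all tested genes, a pseudocount of 1 called 46 higher and 41 lower in place of 117 and 87, and limma-voom on recovered reads called 239 and 174. With a pseudocount of 1, 2 members were called lower in place of 4, and with 1 sample left out 3 to 4. Among neighbouring genes the number that fell was 4 to 7 with 1 sample left out, against 7, and was 4 without sh-TRAF2 replicate 2 or 3. Of the PAX, PAX8 lineage and ARF6 exchange factor genes, 2 fell, but 1 without a trend and 1 to 2 with 1 sample left out. The cause of these changes was not tested, except that a larger pseudocount shrinks every fold change of a low gene.

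The labels number the replicates in both groups. Deviations of same-numbered samples correlated at -0.0812, 0.0722 and 0.0728, and those of differently numbered samples at -0.141 to 0.0673. All these correlations were weak, so the numbers were not taken as pairs. With the replicate number as a block, 120 genes were called higher and 88 lower, and the members called were 1 higher and 4 lower. Of the other named genes' values under the alternatives, 821 stayed on the same side of the adjusted p threshold, 42 lost and 14 gained the adjusted p. None of the genes that passed in the main fit reversed direction. Genes that did not pass could change sign, such as ARF6 (0.02 in the main fit and -0.04 with quantile normalization). Depth limits IL1RN, which rests on 1 to 25 reads per sample and was not in the limma-voom fit.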
